A study of Mus musculus with 9 samples.

Results

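Immediate early genes are transcribed within minutes of a stimulus, without new protein synthesis, from promoters held ready by factors such as serum response factor and NF-kB. Most of their mRNAs are short-lived, and many carry AU-rich elements in the 3'UTR, sequences through which RNA-binding proteins speed mRNA decay. In macrophages, lipopolysaccharide (LPS) induces them through Toll-like receptor 4 and the MAP kinases, and the proteins they encode shape the second wave of transcription. Tristetraprolin (TTP, gene Zfp36) is such an RNA-binding protein, itself induced by LPS, and is held inactive while the kinase MK2 phosphorylates it.

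The 10 genes described here were Ier3, Ier2, Ier5, Fos, Fosb, Jun, Junb, Egr1, Egr2 and Atf3, chosen by gene symbol from the 25494 genes of the deposited table, and all 10 passed a filter on low values (a mean of at least 50) that 11122 genes passed, with Fosb closest to it at 53.2. They were proposed with their differences between transgenes already known, so those differences are described below and carry no test.

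RNA was sequenced from immortalized mouse macrophages of 3 groups with 3 libraries each, 9 in all. All groups shared the same cells: bone marrow-derived macrophages with a disrupted Zfp36 (allele Zfp36tm1Pjb), grown with M-CSF and immortalized with the oncogenes hcmyc and hRasG12V. The groups differed in a retroviral, doxycycline-inducible transgene, which was GFP alone (GFP), GFP fused to TTP (TTP), or GFP fused to a TTP whose MK2 sites were replaced by alanine, S52A and S178A (TTP-AA), in each case the coding sequence with no TTP 3'UTR. Every library came from cells given doxycycline for 6 h and LPS for 1 h, each at 1 µg/ml, so that induction by LPS itself was not measured in the libraries analysed here. The methods describe 1 transduced and sorted cell population per transgene, hence a transgene and its population cannot be told apart, and in whole cultures fewer cells expressing a gene and less RNA per cell cannot be told apart either.

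The deposited values were fitted means of the authors' count model and not a measured count per library. Each was a library factor times a term for the replicate number and a term for the group, with a largest departure of 7.2e-15 on the log2 scale. They hold no scatter between replicates and the order of the groups is the same at every replicate number by construction, and the errors below are therefore counting errors of the fitted counts only, which leave out the variation between cultures. Sums of fitted counts were between 21482954 (TTP replicate 1) and 102613526 (TTP-AA replicate 3) per library. Values below, called scaled fitted counts, were divided by a library factor. Differences between groups are log2 ratios of these counts, centred on the median of all genes that passed the filter. All 9 macrophage marker genes passed the filter (Adgre1 under its older symbol Emr1) and their mean scaled fitted counts lay between 492.6 (Fcgr1) and 586906 (Lyz2), while the 4 of 5 fibroblast markers matched by symbol were at most 0.426 and the 2 of 3 B cell markers at most 1.34. Macrophage markers themselves moved between groups, with medians of -0.07 for TTP against GFP, 0.20 for TTP-AA against GFP and 0.28 for TTP-AA against TTP, where 6, 2 and 1 of 9 stood lower. Emr1, the gene of F4/80, was at -0.76, 0.69 and 1.45 in these comparisons, and Fcgr1, an Fc receptor gene, was at -1.22, -0.38 and 0.84. Of other lineages, Cd3d (1 of 3 T cell markers matched) was at 5.23, Mpo at 0.493 and Elane at 0.489, S100a8 was at 174.4 and higher by 0.77 in TTP-AA than in GFP, and Flt3 and Zbtb46 were at 234.9 and 32.0, with Zbtb46 at -1.10 in TTP-AA against GFP. Of 3 erythroid markers 0 were matched. The part of these shifts in the differences below was not tested.

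The transgenic proteins bind AU-rich elements, so the pentamer ATTTA and the longer heptamer TATTTAT were counted on the sense strand of each 3'UTR (GENCODE mouse release 21 on GRCm38, transcript with the longest coding sequence). Every TATTTAT holds an ATTTA, so the heptamers are also counted among the pentamers. Of 10283 protein coding genes that passed the filter, 66.9% held an ATTTA and 27.8% a TATTTAT, and among the 10 immediate early genes 9 held an ATTTA and 5 a TATTTAT. The following 30 bases of 5 of the 3'UTRs are shown because they stand for the gene with the lowest TTP-AA value relative to GFP (Ier3), for moderately lower genes (Fos and Jun) and for genes close to GFP (Junb and Atf3). Not shown are, among others, the lower genes Ier2 (-0.73, with 0 ATTTA) and Fosb (-0.40, with 1). The stretches were picked as the 30 bases with the most ATTTA, then the most TATTTAT, and are not typical of each 3'UTR. They lie at chr17:35822484-35822513 (plus strand), chr12:85477100-85477129 (plus), chr4:95049207-95049236 (minus), chr8:84977127-84977156 (minus) and chr1:191170338-191170367 (minus), GRCm38, and are written 5′ to 3′ in the direction of transcription with each ATTTA in capitals.
Ier3: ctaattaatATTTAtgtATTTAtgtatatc
Fos: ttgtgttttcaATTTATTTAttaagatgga
Jun: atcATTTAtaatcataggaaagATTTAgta
Junb: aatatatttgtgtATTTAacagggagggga
Atf3: gaaaatattacttATTTAtcccagtattcc

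Ier3 had the densest pentamers of these genes, with 5 ATTTA in a 3'UTR of 613 bases (8.16 per kb), and 4 of the 5 lay within a TATTTAT. Both capitals of its stretch above, which starts 174 bases after the stop codon, belong to heptamers. Among those 10283 genes, 1.22% had as many TATTTAT and 1.94% as high a density of ATTTA. The pair of overlapping pentamers shown for Fos includes 1 of its 2 heptamers, among 4 ATTTA in 815 bases. Jun had 4 ATTTA in 1233 bases, of which 1 was within a heptamer that lies outside the stretch shown. Atf3 had 3 in 1186 bases, including the heptamer shown, and Fosb had 1 in 2145 bases, also within a heptamer. Egr2 had 3 ATTTA in 1200 bases, Junb 2 in 485, Egr1 2 in 1216 and Ier5 2 in 2143, all outside TATTTAT. Ier2 had neither motif in its 755 bases. A match is a string of letters and not a measured binding site.

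**Figure D1:**
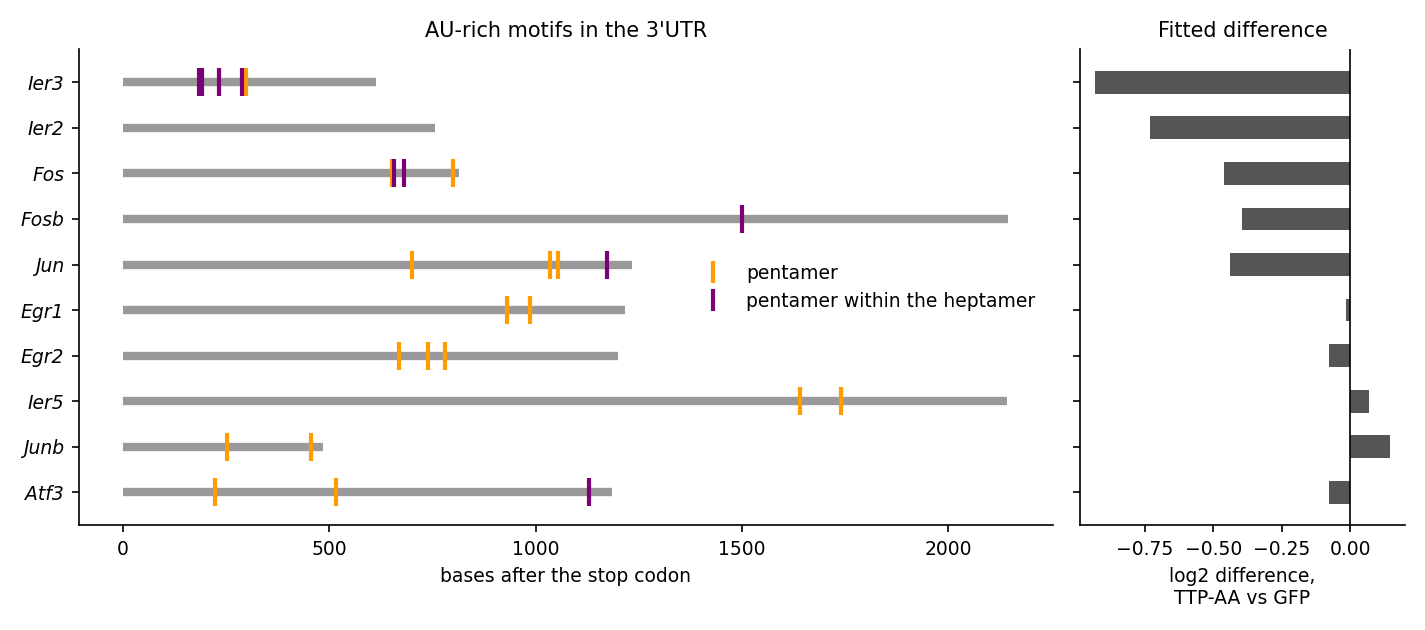
Positions of ATTTA in the 3'UTR of each gene, with distance from the stop codon in bases on the horizontal axis; orange marks are pentamers and purple marks are pentamers within a TATTTAT, and bars at the right give the log2 difference of TTP-AA from GFP. The 5 marks of Ier3 fall between bases 183 and 298 of its 613, and the 3'UTR line of Ier2 (755 bases) carries no mark.

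TTP-AA was compared with GFP to ask how these mRNAs stood in cells holding a TTP that MK2 cannot inactivate through these sites. In TTP-AA, 8 of the 10 genes were lower than in GFP and 2 were higher. Ier3 and Ier2 were lower by 1.91-fold and 1.66-fold, and they were the 2 genes past 1.5-fold, the size used here in place of a test. Fos, Jun and Fosb were lower by less than that, and Egr1, Egr2, Atf3, Ier5 and Junb had log2 differences between -0.08 and 0.15. Among all genes that passed the filter, 5.35% were past 1.5-fold in this comparison (1.95% lower and 3.4% higher), a share given as background from which nothing is read, since the genes were chosen on this contrast. The median of the 10 differences was -0.24, against 0 for all genes by centring, with 50% of all genes between -0.15 and 0.15. By the direction of the difference alone, 50% of all genes were lower by construction.

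Wild-type TTP was set against GFP, and TTP-AA against TTP, using the same libraries, so that the 3 comparisons share samples and are not independent. In TTP against GFP, 0 of the 10 genes were past 1.5-fold, where 3.49% of all genes were (2.56% lower and 0.926% higher). The differences had a median of -0.11 and 9 of 10 were below 0, with Egr1 lowest at -0.56 and Egr2 the exception at 0.16. In TTP-AA against TTP, Ier3 and Ier2 were again past 1.5-fold, lower by 1.85-fold and 1.58-fold, where 8.55% of all genes were past it (2.81% lower and 5.75% higher). In that comparison 6 of 10 were lower, the median was -0.15 and the highest was Egr1 at 0.55. By centring, 50% of all genes were lower in each of these comparisons. The values nearest the threshold (0.585 on the log2 scale) were, past it, those of Ier2 (-0.73 and -0.66 for TTP-AA against GFP and TTP) and, short of it, those of Fos for TTP-AA against GFP (-0.46) and of Egr1 for TTP against GFP (-0.56) and TTP-AA against TTP (0.55).

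**Figure D2:**
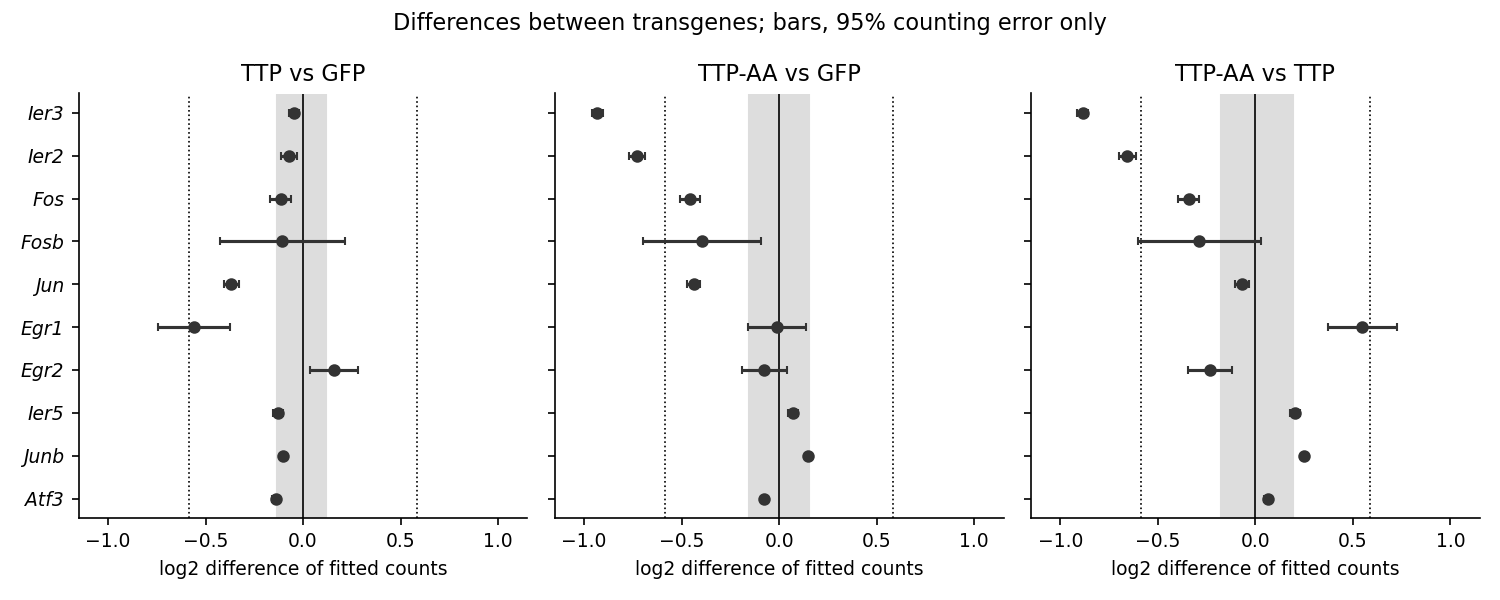
Log2 difference of fitted counts for each immediate early gene in the 3 comparisons; points are differences, bars are 95% intervals from counting error alone, the grey band holds the middle 50% of all genes that passed the filter and dotted lines mark 1.5-fold. Ier3 (-0.93 and -0.88) and Ier2 (-0.73 and -0.66) lie beyond the lower line in both comparisons with TTP-AA.

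Ier3 encodes a small protein induced by NF-kB that modulates cell survival and is counted among the feedback inhibitors of inflammation. The gene (ENSMUSG00000003541) lies at chr17:35821684-35822923 on the plus strand. In GFP its scaled fitted counts were 8779, 10780 and 7399 for replicate numbers 1 to 3. They were 8500, 10370 and 7182 in TTP. In TTP-AA they were 4610, 5648 and 3884. All 3 TTP-AA values lay below all values of both other groups, and the same was so of no other gene of the 10. Among all genes the fitted values of TTP-AA and GFP did not overlap, in either direction, in 24.3%, and those of TTP-AA and TTP in 30%. The share of genes with TTP-AA below both groups was not counted. In additive fitted values this separation restates that the span of Ier3 over groups (0.93) exceeded that over replicate numbers (0.54). The log2 difference was -0.93 (counting error 0.0138) for TTP-AA against GFP and -0.88 (0.0141) against TTP, and 0.378% and 0.845% of all genes stood lower in these comparisons. TTP and GFP differed by -0.05 (0.0131), or -3.08%, in a comparison in which 40.5% of all genes stood lower than Ier3.

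Ier2 encodes a nuclear protein induced by growth factors and LPS and is related in sequence to Ier5. It lies at chr8:84661331-84662852 on the minus strand. The counts were 4304, 4091 and 2432 in GFP. In TTP they were 4092, 3864 and 2319, close to those of GFP. In TTP-AA they were 2601, 2466 and 1469. TTP-AA was the lowest group, yet the groups overlapped, because GFP and TTP replicate 3 were below TTP-AA replicates 1 and 2. The log2 differences were -0.73 (counting error 0.0213) for TTP-AA against GFP, -0.66 (0.0221) against TTP and -0.07 (0.0209) for TTP against GFP. The order of the groups was that of Ier3, and also that of Fos, Fosb and Jun. The 3'UTR of Ier2 held no ATTTA, and a relation between motifs and differences was not tested.

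Ier5, a regulator of heat shock factor activity, did not follow either gene. Located at chr1:155096361-155099636 on the minus strand, it was at 7899, 9734 and 7706 in GFP. The TTP values were 7221, 8840 and 7062, the lowest of the 3 groups. In TTP-AA it was at 8317, 10226 and 8110, the highest group. The log2 difference was -0.13 for TTP against GFP, 0.07 for TTP-AA against GFP and 0.20 for TTP-AA against TTP.

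Fos, Fosb, Jun, Junb and Atf3 encode basic leucine zipper proteins, the subunits from which AP-1 dimers are built, Fos and Fosb pairing with Jun proteins. Fos (chr12:85473890-85477273, plus strand) was at 2714, 2555 and 1309 in GFP. It was at 2504, 2343 and 1212 in TTP and at 1979, 1859 and 954 in TTP-AA. TTP-AA was the lowest group, with a log2 difference of -0.46 (counting error 0.0264; 1.37-fold) from GFP and -0.34 from TTP, but replicate 3 of GFP and of TTP lay below replicates 1 and 2 of TTP-AA. Fosb (chr7:19302696-19310051, minus strand) had the lowest counts of the 10 genes. These were 69.9, 62.6 and 45.6 in GFP, 64.9, 57.8 and 42.5 in TTP and 53.3, 47.6 and 34.8 in TTP-AA. The order of its groups was that of Fos. At -0.40 for TTP-AA against GFP its counting error was 0.154. For TTP-AA against TTP the 95% counting interval of -0.29 ran from -0.60 to 0.03, and for TTP against GFP that of -0.11 ran from -0.43 to 0.22. Counting error alone thus left the direction of both differences unsettled, and variation between cultures is not in it.

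Jun (chr4:95049034-95052222, minus strand) was at 6572, 5513 and 2845 in GFP. It was at 5091, 4244 and 2210 in TTP and at 4859, 4067 and 2103 in TTP-AA. It was lower with either form of TTP, by -0.37 (counting error 0.0190; 1.29-fold) in TTP and -0.44 (0.0175; 1.36-fold) in TTP-AA, which differed from each other by -0.07. An annotated antisense gene, Junos, overlaps 232 exonic bases of Jun, and the use of strand in counting was not given in the sources used here, so reads of the pair cannot be told apart there.

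Junb and Atf3 were abundant and moved little. Junb, a Jun protein with weaker activating capacity than Jun, lies at chr8:84974484-84978718 on the minus strand. It was at 17887, 23778 and 21468 in GFP, 16655, 21997 and 20040 in TTP and 19843, 26317 and 23804 in TTP-AA. TTP-AA was the highest group, by 0.15 over GFP and 0.25 over TTP, the opposite direction to Jun and Fos. Exons of Prdx2 on the other strand overlap 173 of its exonic bases. Atf3 (chr1:191170296-191218039, minus strand), a repressor of inflammatory genes in macrophages, was at 12325, 12508 and 15887 in GFP. It was at 11186, 11279 and 14455 in TTP and at 11715, 11861 and 15093 in TTP-AA. Its differences were -0.14 for TTP against GFP, -0.08 for TTP-AA against GFP and 0.06 for TTP-AA against TTP.

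Egr1 and Egr2 encode zinc finger transcription factors, and in macrophages Egr2 is also linked to differentiation. Egr1, on chromosome 18, was at 281.1, 184.3 and 174.3 in GFP. In TTP it was at 190.7, 124.2 and 118.5, the lowest group. In TTP-AA it was at 279.3, 182.7 and 173.0, within 1% of GFP. The log2 difference was -0.56 (counting error 0.0950; 1.47-fold) for TTP against GFP, -0.01 (0.0757) for TTP-AA against GFP and 0.55 (0.0897; 1.46-fold higher) for TTP-AA against TTP, so that Egr1 was the member that stood lower in TTP than in both other groups by the most. Egr2 (chr10:67535475-67542188, plus strand) ran the other way and was highest in TTP. It was at 348.4, 392.7 and 337.1 in GFP, 388.6, 435.1 and 377.0 in TTP and 331.4, 372.7 and 320.6 in TTP-AA. The values of TTP and TTP-AA did not overlap, although they differed by -0.23, since Egr2 varied least with the replicate number. The size of fitted differences varied with the level of a gene. For TTP-AA against GFP the median size was 0.0331 over the 11394 genes with a mean under 5. It was 0.157 over 2978 genes between 5 and 50 and 0.138 over 8104 genes of 500 or more. Over 3018 genes between 50 and 500, the range that holds Fosb, Egr1 and Egr2, it was 0.199. The differences are terms of a fitted model, which can draw them toward 0 where counts are low, and not plain ratios of measured counts. How far this changed the folds, counting intervals and shares of all genes given here was not tested.

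**Figure D3:**
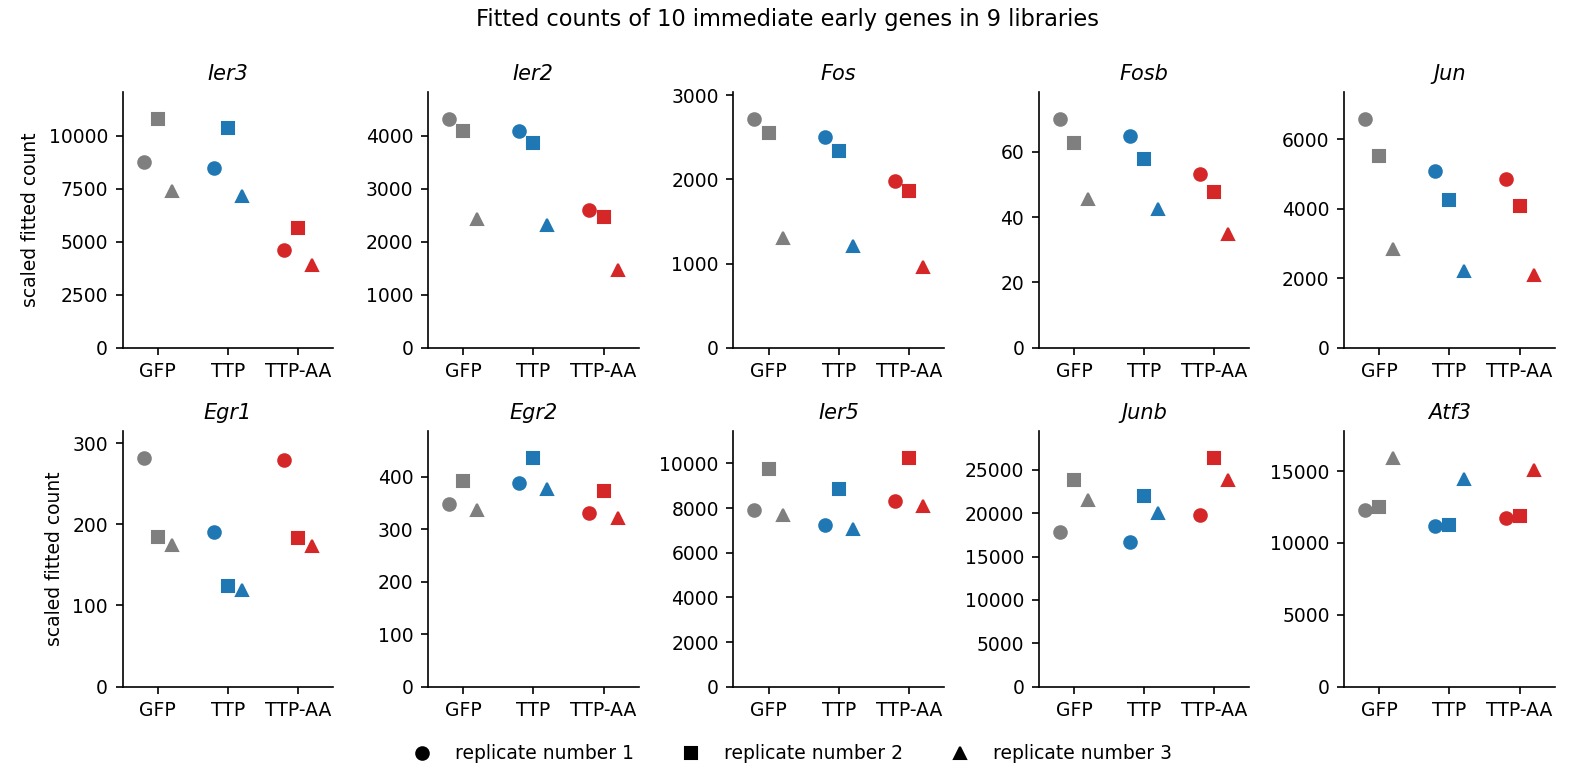
Scaled fitted counts of the 10 immediate early genes in the 9 libraries, 1 panel a gene with its own vertical axis from 0; symbols mark the replicate number and colours the transgene. The TTP-AA values of Ier3 (3884 to 5648) lie below all other values of that gene, while for Fos and Jun replicate number 3 lies lowest in every group.

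The replicate number moved most of these genes further than the transgene did. The authors' model had library date and condition as its terms, so the replicate term in these values is that of library date. Differences between library dates and between replicate cultures cannot be told apart in it. Over replicate numbers the fitted values of Jun spanned 2.31-fold and those of Fos 2.07-fold, against 1.35-fold and 1.37-fold over the groups. The span was at least 1.5-fold for 5 of 10 genes (Ier2, Fos, Fosb, Jun and Egr1), where 17.3% of all genes spanned as much, and at least 2-fold for 2 of 10 (Fos and Jun), against 4.29% of all genes. It exceeded the span over groups for 8 of 10 genes, all but Ier3 and Egr2, against 61% of all genes. On the log2 scale its median over the 10 genes was 0.58, against 0.32 over all genes, with quartiles of 0.20 and 0.50. Replicate number 3 was the lowest for 8 of 10 genes, against 31.9% of all genes, the exceptions being Junb and Atf3, which were lowest in replicate number 1. Since the fit gave every group the same replicate effect, this pattern was estimated once and not seen independently in 3 groups. The span was 0.82 for Ier2, 0.69 for Egr1, 0.62 for Fosb, 0.54 for Ier3, 0.41 for Junb, 0.37 for Atf3, 0.33 for Ier5 and 0.22 for Egr2, all as log2 values. The span over groups was 0.93 for Ier3, 0.73 for Ier2 and 0.56 for Egr1, and between 0.14 (Atf3) and 0.46 (Fos) for the other 7.

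**Figure D4:**
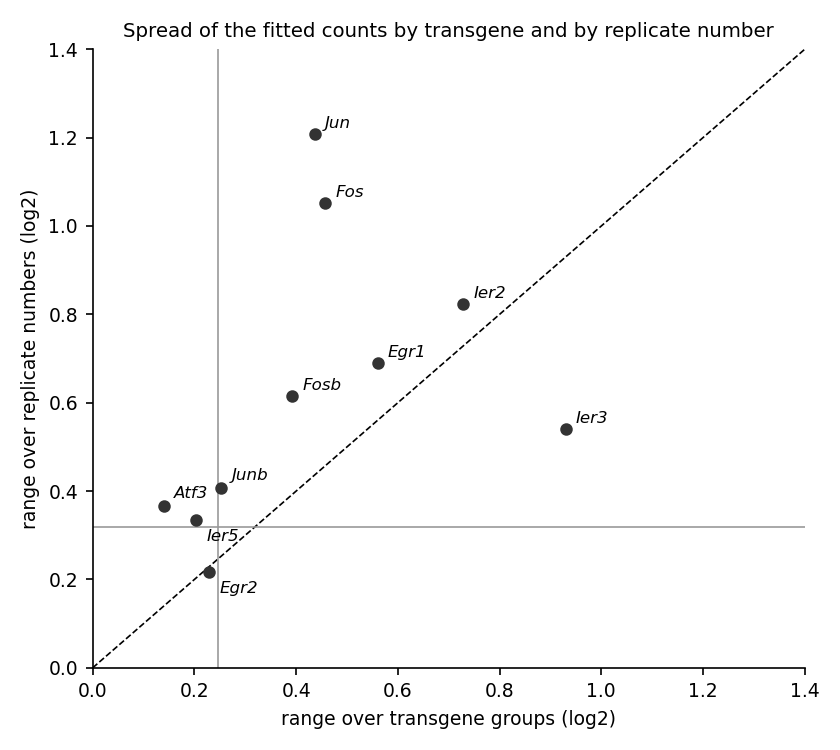
Span of fitted values over replicate numbers (vertical axis, log2) against span over groups (horizontal axis, log2) for the 10 immediate early genes, with grey lines at the medians of all genes that passed the filter (0.32 and 0.25) and a dashed line of equality. Jun (1.21) and Fos (1.05) have the largest spans over replicate numbers of the 10 genes, and Ier3 and Egr2 are the genes of the 10 below the line.

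The deposited tables also gave the authors' mean of the measured normalized counts, which bears on scatter that the fitted values leave out. The ratio of this mean to the mean of the fitted values was divided by its median over all genes, and departures below are from that median. For Fos (a mean of 2278) the departure was 18.1%, and for Egr1 (215.6) it was 14.1%. These departures were larger than those of 99.4% and 99.1% of all genes, whose 5th to 95th percentiles ran from -0.177% to 2.80%. Ier2 stood 6.28% and Fosb 3.99% above, also beyond the 95th percentile. For Egr2 the departure was 1.79%, for Ier3 1.44% and for Jun 0.740%, and for Junb, Atf3 and Ier5 it was 0.101%, 0.0582% and -0.147%. The measured counts behind these means are not analysed here, and how far single libraries departed from the fit is not known.

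Per kb of exon the genes spanned a wide range of levels. Junb was the most abundant at 9261 scaled fitted counts per kb, higher than 98.2% of all genes that passed the filter. Ier3 followed at 6597 and Atf3 at 6000, then Ier5 at 2548, Ier2 at 2018, Jun at 1307 and Fos at 823. Egr2 (108.0), Egr1 (42.3) and Fosb (8.53) were far lower. The level of Ier3 was 7945 per kb in GFP, 7678 in TTP and 4168 in TTP-AA, which placed it above Atf3 in GFP (6302) and TTP (5713) and below it in TTP-AA (5984). Whether neighbouring levels differ beyond their scatter between cultures was not testable on fitted values.

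The other genes of the AP-1, EGR, serum response factor and immediate early classes were taken from 4 lists with 81 genes in the table, of which 68 passed the filter. In TTP-AA against GFP, 6 of the 68 were past 1.5-fold lower and 7 higher, with a median of 0.02, where 1.95% of all genes were lower and 3.4% higher. In TTP against GFP the counts were 4 and 1 with a median of -0.14 (2.56% and 0.926% of all genes). In TTP-AA against TTP they were 4 and 10 with a median of 0.18 (2.81% and 5.75% of all genes). Lower by any amount in TTP-AA than in GFP were 30 of the 68, against 50% of all genes by construction. Of the 11 other AP-1 and partner genes, 0 were lower and 2 higher past 1.5-fold in TTP-AA against GFP, namely Fosl1, a Fos protein (1.00), and Jdp2, a repressor of AP-1 (0.82), and in TTP-AA against TTP Batf3, which is needed for a dendritic cell lineage, was lower (-0.94) and Jdp2 higher (0.95). In TTP against GFP, Fosl1 was the 1 gene of this list past 1.5-fold, at 0.62. Of the EGR family and its corepressors 2 genes passed the filter and 0 were past 1.5-fold in any comparison. Among serum response factor and its 7 listed partners, Mkl2, a coactivator, was higher in TTP-AA, by 0.80 over GFP and 0.98 over TTP, and 0 others were past 1.5-fold.

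The 47 other immediate early genes that passed the filter went in both directions, with 6 lower and 4 higher past 1.5-fold in TTP-AA against GFP, 4 and 0 in TTP against GFP, and 3 and 8 in TTP-AA against TTP. The shares of all genes in these comparisons are those given above for the 68. Hbegf, a growth factor ligand of the EGF receptor, was lower in TTP-AA than in GFP by 0.85 and was at 0.52 in TTP. Klf2, a transcription factor that restrains inflammatory activation, was lower with both forms of TTP, at -0.73 in TTP and -0.71 in TTP-AA. Rgs2, a regulator of G protein signalling, was at -0.67, Gadd45g at -0.65, Arid5a, an RNA-binding protein that stabilizes mRNAs, at -0.62 and Zfp36l2, a relative of TTP, at -0.62 in TTP-AA against GFP. Higher in TTP-AA than in GFP were Id3 (0.97) and Id1 (0.80), inhibitors of basic helix-loop-helix factors, and Cebpd (0.75) and Klf4 (0.70), transcription factors. Gem, a small GTPase, was lowest in TTP at -1.57 against GFP, and Errfi1, an inhibitor of the EGF receptor, was at -1.003 and Ppp1r15a at -0.59 there. For TTP-AA against TTP, Gem stood at 1.74, Errfi1 at 0.79, Btg1 at 0.70 and Gadd45b at 0.69. Id3, Id1, Klf4 and Cebpd were past 1.5-fold higher there as well. The 3 lower genes were Hbegf (-1.36), Rgs2 (-0.64) and Arid5a (-0.62). Over all 4 lists the span over replicate numbers was at least 1.5-fold for 24 of 68 genes, against 17.3% of all genes, with a median of 0.471 on the log2 scale. Replicate number 3 was the lowest for 21 of 68, against 31.9% of all genes.

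**Figure D5:**
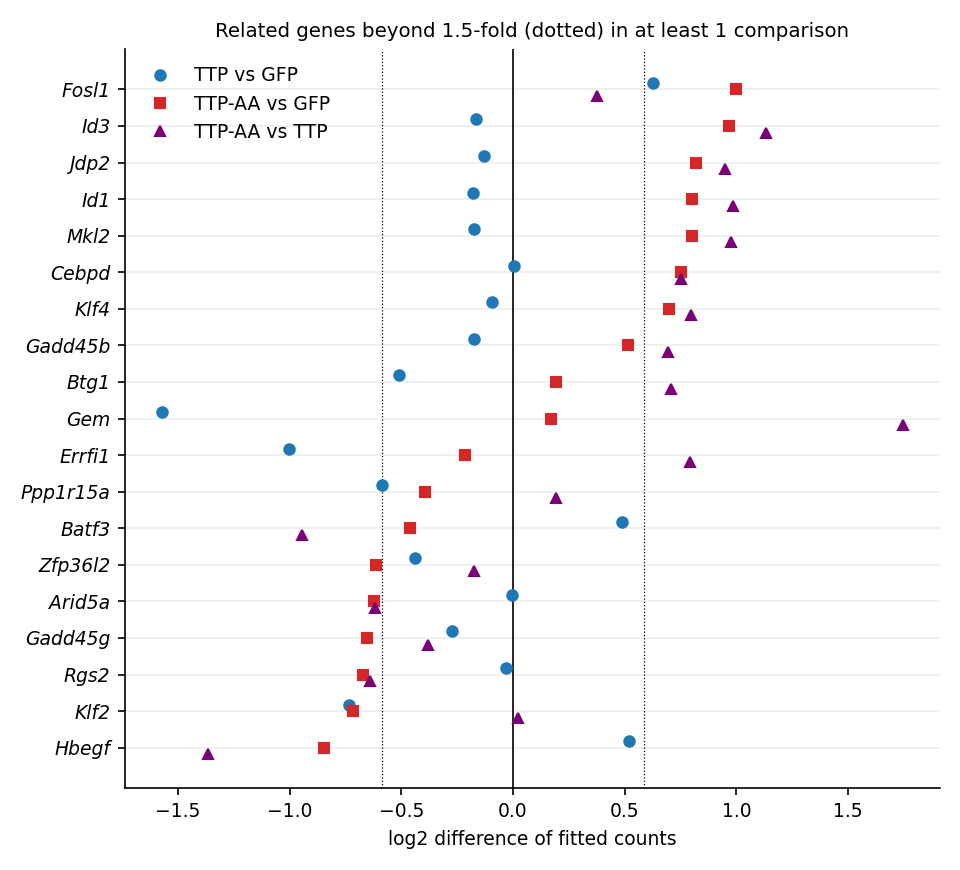
Log2 differences of the 19 related genes that were past 1.5-fold (dotted lines) in at least 1 comparison, ordered by TTP-AA against GFP; circles are TTP against GFP, squares TTP-AA against GFP and triangles TTP-AA against TTP. Genes from Hbegf (-0.85) at the bottom to Fosl1 (1.00) at the top lie on both sides of 0, and Gem has the widest spread (-1.57 to 1.74).

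Of the 4 other genes listed here as feedback inhibitors or inflammatory mediators, Zfp36 was at 0.03 in TTP against GFP and higher in TTP-AA by 0.70 than in GFP and by 0.68 than in TTP. The mean scaled fitted count of Zfp36 was 1354 in GFP, 1376 in TTP and 2205 in TTP-AA, so its level did not show the disruption of the gene or the presence of TTP, and whether transgene reads entered this count is not given in the sources used here. Dusp1, a phosphatase that inactivates p38, was short of 1.5-fold, at -0.57 in TTP and -0.56 in TTP-AA against GFP. Its span over replicate numbers was 1.36 on the log2 scale. Tnfaip3, an editor of ubiquitin chains, and Tnf were also within 1.5-fold in all 3 comparisons, between -0.33 and 0.38.

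Ier3 was compared with 6389 genes of mean scaled fitted count of at least 1000 by the root mean square distance of log2 values over the 9 libraries, each gene centred on its own mean. Gas6, a ligand of the TAM receptors, was nearest at 0.0937, with differences of 0.12, -0.72 and -0.84 for TTP against GFP, TTP-AA against GFP and TTP-AA against TTP. Retsat, a retinol saturase, followed at 0.131 (0.01, -0.71 and -0.71), then Fam107b at 0.132 (-0.02, -0.72 and -0.69). Among the 10 genes described here Ier2 was the nearest to Ier3 at 0.259, followed by Fosb at 0.333, and Egr1 was the farthest at 0.699. Fitted values hold only group and replicate terms, so these distances compare those terms and not 9 separate measurements. With 6389 candidate genes some close neighbours arise in any case, and shared regulation was not tested.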

How the data were processed

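Per the labels and methods, rRNA-depleted total RNA was sequenced as 50-base single reads. The authors trimmed reads (Trim Galore), aligned them with TopHat to GRCm38, counted reads per gene with HTSeq and fitted DESeq2 1.6.3 with library date and condition as terms. Before lysis, cells were rinsed in buffer with cycloheximide. The deposited table of normalized values is used as a signal: none of its values was 0 (0 in 25494 genes after 10 repeated identifiers were dropped) and its log2 values had 4 nonzero singular values of 8 possible, so the authors' values are fitted means. The deposited comparison tables hold the authors' mean signal, which was used, and their fold changes, standard errors, Wald statistics and p-values, which were not.

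Here, libraries were scaled by the median ratio of genes averaging 50 or more, same-numbered libraries were paired, and log2 ratios were centred on the 11122 genes passing this same minimum (pseudocount 0). As no scatter exists, a fold of 1.5 replaces a call, and the replicate numbers stand for the library dates of the authors' model. Whether replicates were separate cultures beyond their labels is not known from the values. Exonic lengths were found for 98.7% of genes, in a later annotation than the authors'.

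The 10 genes, the lists of related genes (named where past 1.5-fold in any comparison), the feedback inhibitors and the markers were chosen with earlier results of these data known. The genes nearest Ier3 were taken as the 3 smallest distances. Alternatives were other scalings, filters, folds, a pseudocount, no pairing and another transcript. Steps were run on simulated additive values without count noise, which checks the arithmetic and not how reliable the differences are. Python 3.11.15, numpy 2.4.6, pandas 2.3.3 and matplotlib 3.10.9 were used.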

Additional observations from a re-analysis of the deposited data

How the results depend on the processing

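Of 180 differences of single genes recomputed under the alternatives, 0 of those past 1.5-fold changed sign and 6 moved beyond their 95% counting interval, by at most 0.0377 on the log2 scale, all when no filter was applied and the centre of all genes shifted. Among these, Ier3 in TTP-AA against TTP went to -0.92. In additive fitted values another scaling or filter adds the same constant to every gene of a comparison. The stability under those alternatives was therefore fixed in advance and says nothing about how reliable the differences are. Counts of genes past the fold depended on the fold: at a smaller fold (0.32 on the log2 scale) they were 2 for TTP against GFP, 5 for TTP-AA against GFP and 4 for TTP-AA against TTP (11.6%, 19.1% and 26.8% of all genes), and at 2-fold they were 0 for both comparisons with TTP-AA (1.20% and 2.87% of all genes). With a filter at a mean of 200, which 8 of the 10 genes passed, the median span over replicate numbers was 0.474. Motif counts of the 10 genes were as above in the transcript with the longest 3'UTR. No paired analysis was possible because fitted means leave no residual for a test; with no replicate block the difference of Ier3 in TTP against GFP was -0.05, and no difference can change without the block in additive fitted values. Leaving out each replicate in turn was not run, since the fitted values carry no scatter. The scatter of measured counts between cultures, which limits every value here, is not in these values.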
